A study of Mus musculus with 19 samples.

Results

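The cytosolic ribosomal protein genes encode the proteins of the ribosome outside mitochondria. They were taken from the counted genes by symbol: Rps or Rpl, a number and at most 1 of the letters a, x or l, together with Rpsa, Rplp0, Rplp1 and Rplp2, and without genes named as pseudogenes. This gave 83 of 54352 genes, 32 of the small subunit and 51 of the large subunit. Of these, 79 had enough counts to be tested, among 15066 genes. Rpl10l, Rpl6l, Rpl39l and Rpl24 did not, with means of 0.053, 1.05, 1.32 and 3.47 counts per library. Rpl6l, Rpl32l and Rps4l fit the naming rule, although GENCODE vM21 annotates them as processed pseudogenes.

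RNA was sequenced from mouse bone marrow progenitors sorted 10 weeks after transplantation. C57BL6 donor hematopoietic stem cells carried a lentiviral vector in which doxycycline switches on zsGreen and an shRNA through rtTA, the transactivator driven by an SFFV promoter, and recipients were C57BL/6-CD45.1; cKit-w41 animals of both sexes, adult at transplantation, given a sub-lethal dose of irradiation and no competitor marrow. All animals, controls included, ate doxycycline food for 6 days, and zsGreen-positive LSK cells (the stem and early progenitor gate, called KLS in the labels) and common myeloid progenitors (CMPs) were collected. The shRNAs were sh10 or sh20, which target the long noncoding RNA *Spehd*, or a control shRNA whose target, Renilla luciferase, mice lack. Among the CMP libraries, 3 carried sh10, 2 carried sh20 and 4 carried the control; among those of LSK cells these numbers were 3, 3 and 4. Cells transduced in 1 well went into several animals, and the labels do not say which animals gave which library, so p-values measure the spread between these libraries only. No counted gene carries the name *Spehd*, so its own level is not analysed here and did not check the knockdown labels.

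The small subunit decodes the messenger RNA and the large subunit joins amino acids. Most ribosomal proteins are present in 1 copy per ribosome, and cells make them in matched amounts from many separate genes. Their messenger RNAs are known for beginning with a terminal oligopyrimidine (TOP) tract, an unbroken run of C and T bases at the very start of the transcript, through which mTOR signalling and LARP1 control their translation. Mutations in a number of these genes cause Diamond-Blackfan anaemia, in which red cell progenitors fail, so the family is of interest in blood progenitors. Ribosomal protein genes also have many processed pseudogenes, which are copies of their spliced messages elsewhere in the genome.

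RefSeq start-site windows (GRCm38.p6, 250 bases before to 50 bases after each annotated start) were found for 61 of the 83 genes, and Rpl8 had no entry. An unbroken run of at least 8 C or T bases reached to within 30 bases of the annotated start in 44 of these 61 genes (72.1%), compared with 30.5% of the 27025 genes in the table. Windows of 30 bases around that run are shown for 5 genes that return in the results, followed by Rplp0 and Rpl41, in which no such run was found and a shorter run is marked. The run is in capitals, and each is read 5′ to 3′ on the gene's own strand.

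Rpl4, chr9:64173361-64173390, plus strand: gtgacaagTCTTTCCTTTTCCTgtgggagc
Rpl13a, chr7:45128722-45128751, minus strand: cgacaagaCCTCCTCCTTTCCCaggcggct
Rpl34, chr3:130730330-130730359, minus strand: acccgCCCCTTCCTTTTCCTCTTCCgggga
Rplp2, chr7:141447636-141447665, plus strand: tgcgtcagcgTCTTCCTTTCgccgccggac
Rps10, chr17:27635227-27635256, minus strand: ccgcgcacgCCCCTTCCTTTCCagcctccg
Rplp0, chr5:115559466-115559495, plus strand: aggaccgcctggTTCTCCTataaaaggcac
Rpl41, chr10:128549185-128549214, minus strand: ctgtctcgagcagCCCCgccctaagggacg

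The run was 14 bases long in Rpl4 and Rpl13a, 20 in Rpl34, 13 in Rps10 and 10 in Rplp2. Its first base lay at -26 in Rpl4, -6 in Rpl13a, -22 in Rpl34, -12 in Rps10 and -15 in Rplp2, counted from the annotated start. In Rpl4, Rpl34 and Rplp2 the run ended before that start. Whether any run begins a transcript was not tested. The marked run was 7 bases long in Rplp0 and 4 in Rpl41, and Rps19, Rps3, Rpl6 and Rpl10 also lacked a run of 8, with 7, 6, 6 and 4 bases. The windows were also searched on both strands for CCGGAAG, the core sequence bound by ETS factors, which was present in 25 of 61 genes (41.0%) and in 9.93% of all genes in the table. ATGGCGG, a core of the YY1 site that also spans a start codon, was present in 10 (16.4%) and in 4.69% of all genes. TATAAA was present in 7 (11.5%) and in 15.7% of all genes. These are matches of letters in the windows, and they do not show that a factor binds there.

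The 83 genes together held between 0.199% and 0.3001% of the gene counts of a library, or 9548 to 14016 counts. Only alignments to a single place in the genome had been counted, and the share of alignments that were not unique ran from 39.6% to 50.9%. To measure how much of each message has copies elsewhere, its principal GENCODE vM21 transcript was divided into all 50-base words, and the percent found in transcripts of other genes was recorded. Of the 79 genes, 38 had at least 50% of their words in other genes, with a median of 72.1 mean counts per library, and 41 had less, with a median of 121 counts. On a scale per length, CPM (reads scaled to a common library size) per kilobase of transcript, the medians were 17.8 and 27.4.

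Rpl4 and Rpl8, both proteins of the large subunit core, were among the genes with a high level per length, at 144 and 140 CPM per kb, with 16.5% and 6.49% shared words. Rps27l, a close relative of Rps27 and a target of p53, stood at 103 CPM per kb with 22.4% shared words, whereas Rps27 itself stood at 11.8 with 98.7%. Shared sequence did not order all genes, since Rpl10a reached 68.0 CPM per kb with 88.1% shared words. Rps15a had only 4.16 with 6.37%, but its principal transcript was 5179 bases long, and that length lowers both values. The transcript chosen can also set the side of 50% on which such genes fall, as for Rps20 with 3706 bases and 7.57% shared words. The lowest tested level belonged to Rpl3l, the Rpl3 relative of striated muscle, at 0.427 CPM per kb. Levels between genes therefore describe uniquely assigned reads, and the RNA of members with copies cannot be read from them.

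**Figure D1:**
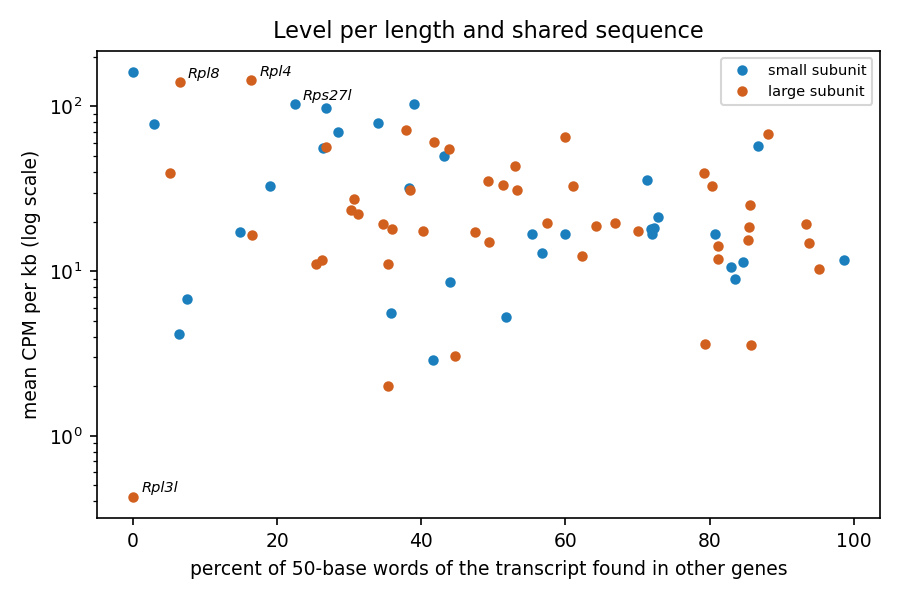
Each point is 1 of the 79 tested genes, with the percent of the 50-base words of its transcript that also occur in other genes on the x axis and its mean level over 19 libraries, in CPM per kb on a log scale, on the y axis. Rpl4 and Rpl8 lie at the top left with 144 and 140 CPM per kb, and Rpl3l lies at the bottom with 0.427.

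Some of the most counted members had nearly the same raw count in every library, and others did not. Library totals ran from 3647318 to 5965155 gene counts, a 1.64-fold range. Rpl4 had between 1009 and 1101 counts, a 1.09-fold range, and Rplp0, the base of the ribosomal stalk, had between 373 and 422. Rps3 ranged 1.30-fold, whereas Rpl22 ran from 283 to 580, a 2.05-fold range, and Rps24 ranged 2.01-fold. The variance of the raw counts over the 19 libraries, divided by their mean, is 1 for counting error alone. It was 0.673 for Rpl4, 0.358 for Rplp0, 2.80 for Rps3, 10.3 for Rps24 and 13.5 for Rpl22. It lay under 2 in 6 of the 16 members with a mean of at least 200 counts, compared with 52 of 6291 genes (0.827%) whose means lay in the same range. For members with such flat counts a CPM value therefore falls as the library total rises. Duplicate alignments had been removed before counting, and the part of that step was not tested.

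**Figure D2:**
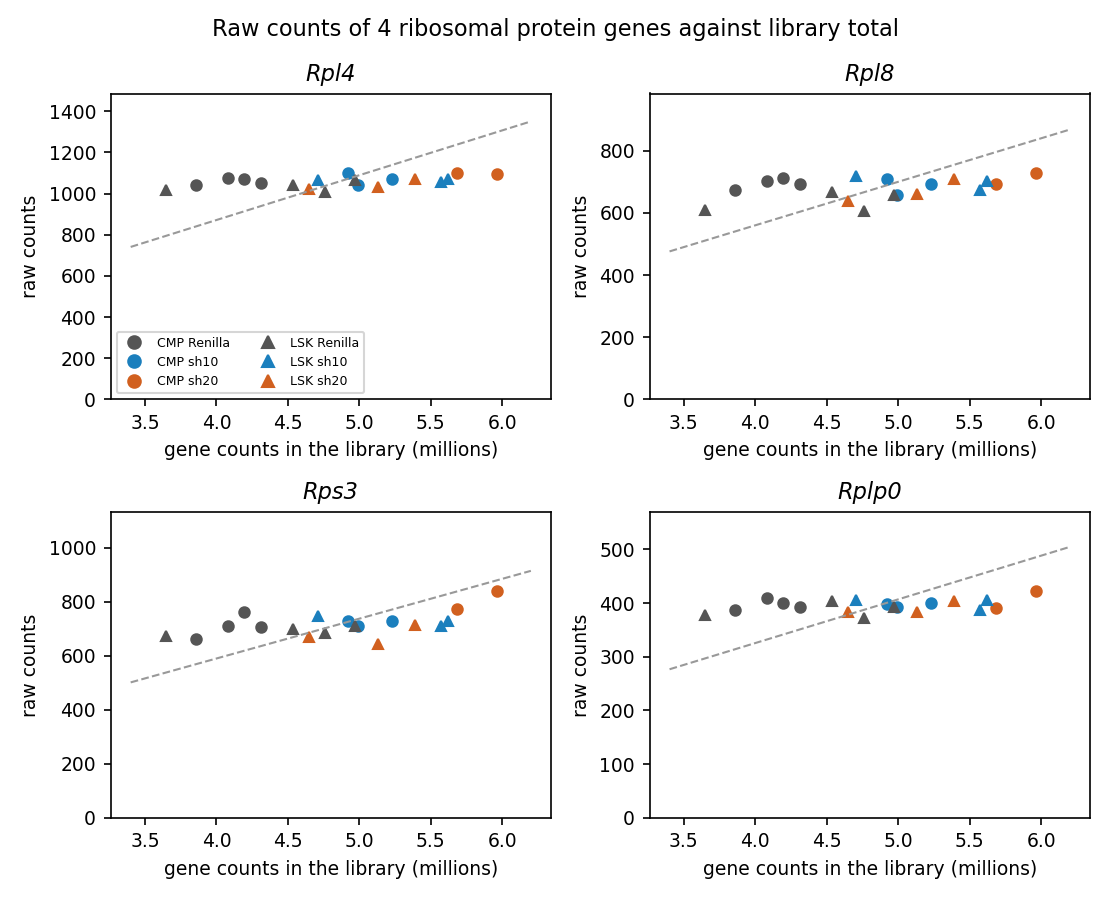
Raw counts of Rpl4, Rpl8, Rps3 and Rplp0 in each of the 19 libraries are plotted against the gene counts of the library, with circles for CMP and triangles for LSK and colours for the shRNA. The dashed line shows counts in proportion to the total, and the points run flatter than it, between 1009 and 1101 for Rpl4 while totals range 1.64-fold.

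The totals themselves differed between groups. In CMPs the *Spehd* shRNA libraries had 4918631 to 5965155 gene counts, all above the 3857980 to 4314959 of the Renilla libraries, a mean difference of 0.38 in log2 (exact two-sided permutation test, p = 0.016, 5 against 4). In LSK cells totals overlapped, and the mean difference was 0.22 (exact two-sided permutation test, p = 0.057, 6 against 4). Summed over 7 LSK genes, Renilla libraries had 1963 to 2273 CPM in LSK cells and 1236 to 1296 CPM in CMPs. Ly6a, the Sca-1 antigen of the LSK gate, had means of 50.9 and 5.17 CPM in the same groups. The 6 CMP genes summed to 2335 to 2703 CPM in LSK cells and 1865 to 2077 CPM in CMPs. Of these, Gata2 was higher in CMPs by its mean, 546 against 490 CPM, with overlapping libraries, and the means of the other 5 were lower there. The 7 erythroid genes summed to 126 to 146 CPM in CMP Renilla, 76.0 to 135 in CMP sh10 and 207 to 232 in CMP sh20 libraries, and the 6 lymphoid genes to 50.7 to 101, 25.9 to 41.4 and 150 to 163 CPM. The sh20 libraries also stood below all CMP Renilla libraries in the CMP genes, at 1418 to 1656 CPM, and in the LSK genes, at 972 to 1142 CPM, with Cd34 at 187 CPM compared with 299 to 408, whereas the sh10 libraries overlapped the Renilla libraries in both sums. In LSK Renilla libraries the erythroid genes summed to 7.18 to 15.3 CPM, below all CMP Renilla libraries, and the 4 megakaryocyte genes to 446 to 605 CPM, compared with 655 to 952 CPM in CMP Renilla libraries, again without overlap. In LSK cells the 6 mature neutrophil genes ran from 3.12 to 291 CPM over libraries, compared with 1.22 to 10.7 in CMPs. None of these marker genes was at 0 throughout a group, and their part in the results below was not tested.

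The first comparison asked how the family differs between LSK cells and CMPs under the control shRNA. Of the 79 tested ribosomal protein genes, 17 were higher in CMPs, among them Rpl13a, Rpl41, Rpl3, Rpl8 and Rps27l, none was lower, and 62 did not pass the test. Across all genes tested, 11.0% rose. No member was called with the share of alignments not unique as a covariate. Over the 79 genes the log2 fold change had a median of 0.43, compared with -0.02 over all genes, and 75 of 79 fold changes were above 0. In a bulk sample, a change in the number of cells of a type and a change in RNA per cell cannot be told apart.

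Rpl13a, a large subunit protein with a role in translational silencing of inflammatory messages, had 32.1, 31.7, 25.1 and 22.8 CPM in CMP Renilla libraries A to D and 13.7, 15.3, 13.9 and 18.4 CPM in the LSK libraries. All CMP values lay above all LSK values. Its log2 fold change was 0.86 (SE 0.22, adjusted p = 0.010), the largest rise among called members with a mean of at least 50 counts. Rpl41, the smallest ribosomal protein, had 41.9, 49.5, 37.1 and 37.1 CPM in CMPs and 19.02, 24.1, 27.0 and 25.3 CPM in LSK cells. These groups did not overlap either, and the change was 0.80 (SE 0.18, adjusted p = 0.0047). Rpl3, which lies close to the site of peptide bond formation, averaged 44.4 ± 5.11 CPM in CMPs and 26.0 ± 3.61 CPM in LSK cells (SD, n = 4 each), and its change was 0.77 (SE 0.20, adjusted p = 0.013).

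The other called members included Rps27l, Rpl27, Rps21, Rpl34, Rpl31, Rpl21, Rps7, Rpl28, Rpl13, Rpl8 and Rpl29, and the less counted Rps6 and Rpl36a, which are named here after their values were seen. Rps6, the substrate of S6 kinase, averaged 14.4 ± 3.32 CPM in CMPs and 7.07 ± 1.09 CPM in LSK cells (SD, n = 4 each), a log2 change of 1.03 (SE 0.28, adjusted p = 0.017). Among the most counted members, Rpl8 rose by 0.26 (SE 0.085, adjusted p = 0.040), and its libraries overlapped. Rpl4, Rps3 and Rplp0 did not pass, each with a log2 fold change of 0.17. CPM values of all 4 CMP libraries lay above all 4 LSK libraries in 36 of 79 members, compared with 16.4% of all genes tested.

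By subunit, 5 of 32 small subunit genes and 12 of 47 large subunit genes were called, compared with 11.0% of all genes that rose, and medians were 0.34 and 0.46. The 38 members with at least 50% shared words had a median of 0.48, and 9 were called. The 41 with less had a median of 0.31, and 8 were called. Shares of alignments that were not unique were 43.6% to 45.6% in CMP Renilla libraries and 39.6% to 41.7% in LSK Renilla libraries. With this share as a covariate, chosen after seeing the data, the median was 0.22 and no member was called. The shares do not overlap between these groups, so share and cell type cannot be told apart in this comparison. The part of multiple alignment was not tested further. Totals of the LSK Renilla libraries, 3647318 to 4967015, overlapped those of the CMP Renilla libraries, and with log2 total as a covariate the median was 0.38 with 9 called. Without LSK sh10 replicate B, which enters only through the common estimate of the spread, 28 members were called, and the count fell to 8, 5, 7, 11 and 10 without CMP Renilla replicate A or B or LSK Renilla replicate A, B or D.

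The same contrast of cell types was made with each *Spehd* shRNA. With sh10, 2 of 79 members were higher in CMPs, Rps6 at 1.11 (SE 0.33, adjusted p = 0.027) and Rpl36a at 0.94 (SE 0.29, adjusted p = 0.037), compared with 7.51% of all genes. No member was called with upper quartile scaling, with no filter or with only the libraries compared. The same held without any 1 of CMP sh10 replicates A and B and LSK sh10 replicates A and C. The median log2 fold change was 0.16, and without 1 library it ran from 0.08 (LSK sh10 replicate C) to 0.32 (LSK sh10 replicate B). With sh20, 2 were higher, Rpl10 and Rpl13a, compared with 5.94% of all genes, and the median was 0.17, and without 1 library it ran from 0.09 (CMP sh20 replicate C) to 0.22 (LSK sh20 replicate B). Rpl13a changed by 0.88 with sh20 (SE 0.28, adjusted p = 0.040), 23.9 and 27.7 CPM in CMPs against 13.0, 14.4 and 14.5 CPM in LSK cells. It kept its direction but not its call in 8 of 12 alternatives. The median with sh20 was 0.28 with log2 total and 0.0005 with the share of alignments not unique as a covariate.

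**Figure D3:**
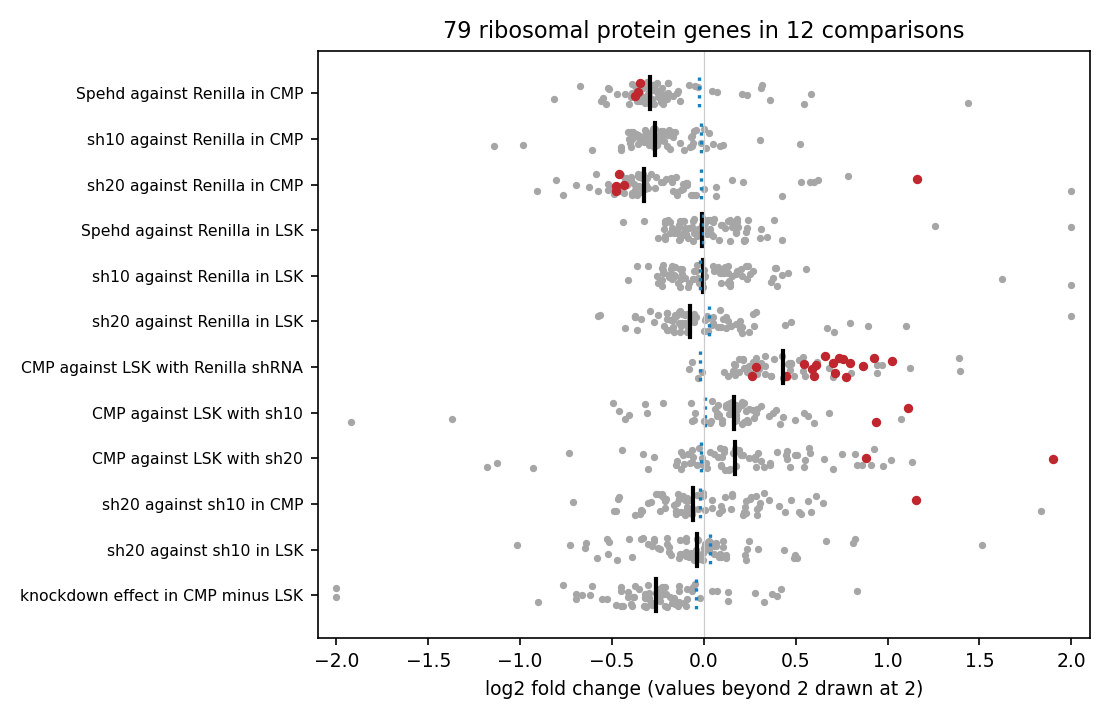
Log2 fold changes of the 79 tested genes (x axis) are drawn for 12 comparisons (rows), with red points for genes with an adjusted p under 0.05 and grey points for the others. The black bar is the median of the 79 genes and the dotted bar that of all 15066 genes: the former is 0.43 in CMP against LSK with Renilla shRNA and -0.29 for *Spehd* against Renilla shRNA in CMPs.

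The next comparison asked what the *Spehd* shRNAs do to the family in CMPs. The summed share of the family differed between the groups: the 83 genes held 0.283% to 0.3001% of gene counts with Renilla shRNA, 0.222% to 0.255% with sh10, and 0.235% and 0.239% with sh20. No *Spehd* library reached the lowest control library. For the average of both shRNAs, 3 of 79 members fell, none rose and 76 did not pass, compared with 2.14% of all genes that fell. The median log2 fold change of the 79 was -0.29, compared with -0.03 over all genes, and 69 of 79 were below 0. With log2 total as a covariate the median was -0.05.

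**Figure D4:**
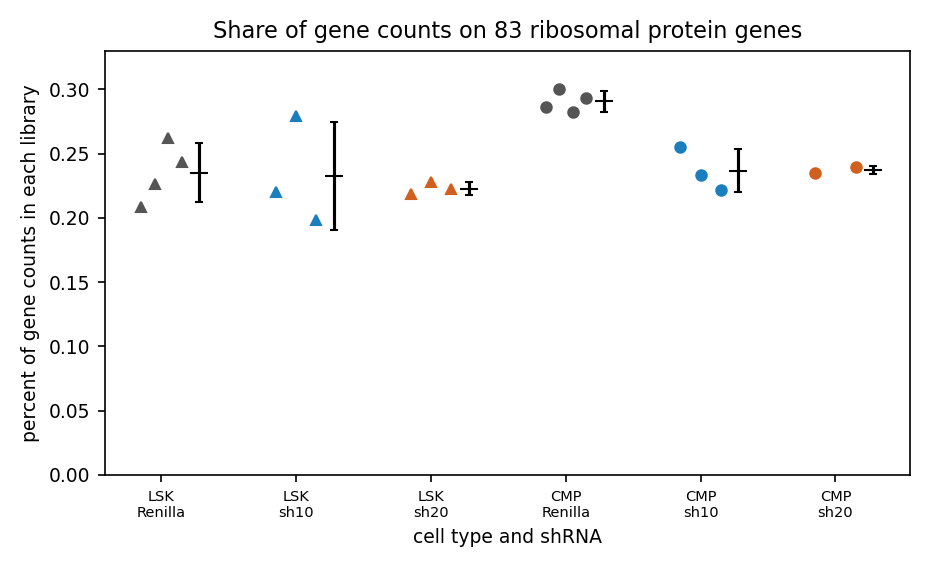
The percent of gene counts on the 83 genes is shown for each of the 19 libraries, by cell type and shRNA; the dash and bar beside each group are the mean and SD. CMP Renilla libraries lie between 0.283% and 0.3001%, above all 5 CMP libraries with a *Spehd* shRNA.

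Rpl8 and Rpl4 were among the members that fell. In GENCODE vM21 (GRCm38) these genes lie at chr15:76904078-76906314 and chr9:64173375-64178666, both on the plus strand. Rpl8 had 177, 174, 161 and 172 CPM with Renilla shRNA, 149, 139 and 137 CPM with sh10, and 124 and 122 CPM with sh20. The groups did not overlap, and the log2 fold change was -0.37 (SE 0.081, adjusted p = 0.027). Rpl4 had 274, 261, 244 and 264 CPM with Renilla shRNA, 231, 215 and 217 with sh10, and 185 and 193 with sh20, a change of -0.35 (SE 0.078, adjusted p = 0.030). In both genes the sh20 libraries were the lowest and the Renilla libraries the highest. These calls were not stable: no member was called when any 1 of the CMP libraries other than sh20 replicate C was left out, or any 1 of LSK sh10 replicate A, LSK sh20 replicates B and C and LSK Renilla replicate D, while 10 were called in DESeq2. Without 1 library, the log2 fold change of Rpl8 ran from -0.40 to -0.35.

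The raw counts of the same genes did not separate the groups. Rpl4 had 1040 to 1074 counts with Renilla shRNA and 1040 to 1101 with *Spehd* shRNAs, and Rpl8 had 673 to 713 and 658 to 729. With log2 total as a covariate, no member was called. Totals of the *Spehd* and Renilla libraries do not overlap in CMPs, so depth and shRNA cannot be told apart within this cell type.

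Of the other members, 17 had all 5 *Spehd* libraries below all 4 Renilla libraries without passing the test; with the 3 called genes this made 20 of 79, compared with 5.76% of all genes. They included all 3 stalk proteins. Rplp0 changed by -0.37 (SE 0.097, adjusted p = 0.055), Rplp1 by -0.43 (SE 0.12, adjusted p = 0.076) and Rplp2 by -0.35 (SE 0.15, adjusted p = 0.24). Rpl34 had -0.47 (SE 0.16, adjusted p = 0.14), Rps3 -0.28 (SE 0.083, adjusted p = 0.086), Rps27l -0.33 (SE 0.11, adjusted p = 0.13) and Rpl22 -0.29 (SE 0.12, adjusted p = 0.22). Rpsa, the laminin receptor precursor of the small subunit, had -0.13 (SE 0.26) with overlapping libraries. Medians were -0.30 over the 32 small subunit and -0.28 over the 47 large subunit genes, and -0.30 and -0.26 over members with less and with more than 50% shared words. Members with a mean of at least 200 counts had a median of -0.34, and 15 of 16 were below 0.

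By hairpin, sh10 gave no call in edgeR or in DESeq2, where 0.710% of all genes fell. An unadjusted p under 0.05 was found for 12 of 79 members, close to the 14.3% of all genes. The sh10 libraries stood below all Renilla libraries in the lymphoid gene sum given above. The median was -0.27, and 71 of 79 were below 0. With log2 total as a covariate the sh10 median was -0.07. Low p-values belonged to Rpl8 (-0.27, SE 0.093, adjusted p = 0.20) and Rpl4 (-0.24, SE 0.089, adjusted p = 0.23). With sh20, 4 members fell, compared with 3.16% of all genes, and the median was -0.32. With log2 total as a covariate it was -0.03, and no member was called. The CMP sh20 libraries differed more than other CMP replicates. Their chi-square per degree of freedom over genes, 1 for counting error alone, was 27.7, compared with 4.32 to 8.06 for other CMP replicate pairs. The fit shares its spread over all groups, so the sh20 p-values may be too low. The same sh20 libraries stood apart from the Renilla libraries in the CMP, LSK, erythroid and lymphoid gene sums given above. The members that fell included Rplp0 at -0.48 (SE 0.13, adjusted p = 0.042), Rpl8 at -0.48 (SE 0.11, adjusted p = 0.021) and Rpl4 at -0.46 (SE 0.10, adjusted p = 0.021). No member was called for sh20 without any 1 of CMP sh10 replicates A, B and C, CMP sh20 replicate B, CMP Renilla replicates A and B, or LSK Renilla replicate D. Rplp0 had 102, 97.5, 91.0 and 100.4 CPM with Renilla shRNA and 71.5 and 68.5 with sh20.

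Rpl10, an X-linked large subunit protein added late in assembly, was the only member that rose with sh20, compared with 0.883% of all genes. It had 43.7 CPM in replicate B and 16.5 CPM in replicate C, and 13.7, 14.4, 13.0 and 12.8 CPM with Renilla shRNA. The log2 fold change of 1.16 (SE 0.30, adjusted p = 0.040) rested on replicate B, whose 258 raw counts compare with 30 to 94 in the other 18 libraries. Without it the change was 0.25, from 1 library, and was not called. Rpl10 shares 85.4% of its words with 15 other genes, and the part of these copies was not tested. The same library made Rpl10 the only member called between the hairpins in CMPs, at 1.15 for sh20 against sh10 (SE 0.32, adjusted p = 0.047), where 2.47% of all genes were higher, and it gave 0.25 without replicate B. These values without replicate B leave 1 CMP sh20 library, which the fit takes to vary like the other groups. In CMP against LSK with sh20, the change was 1.90 (SE 0.33, adjusted p = 0.00097), and 1.04 without replicate B.

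**Figure D5:**
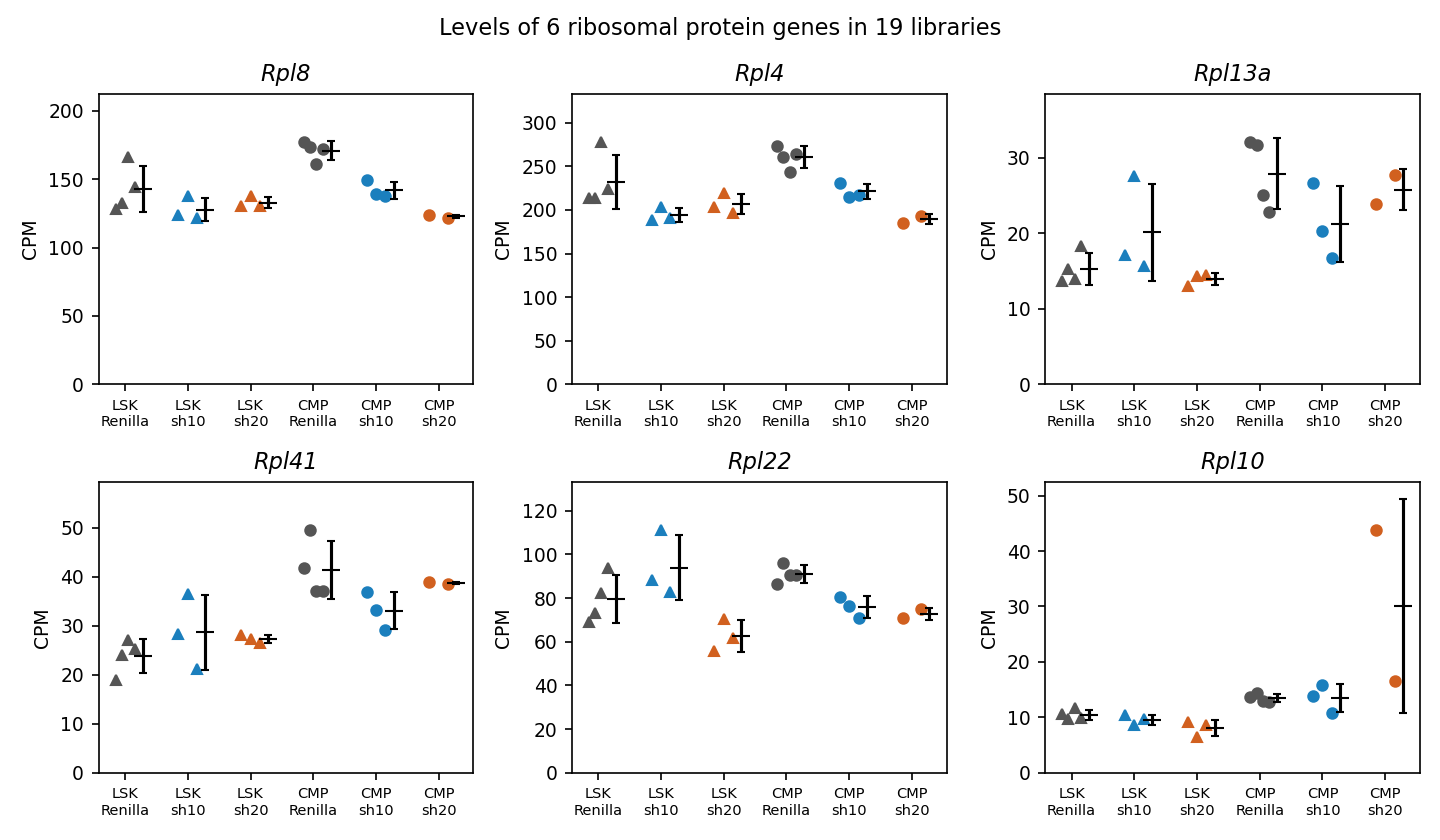
CPM of Rpl8, Rpl4, Rpl13a, Rpl41, Rpl22 and Rpl10 in each of the 19 libraries by cell type and shRNA; the dash and bar beside each group are the mean and SD (2 libraries in CMP sh20). In CMPs, Rpl8 and Rpl4 are highest in the Renilla libraries, and the Rpl10 value of 43.7 CPM belongs to 1 CMP sh20 library.

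In LSK cells no member was called with the *Spehd* shRNAs in edgeR or in DESeq2, and 0% of all genes were in edgeR. The median log2 fold change was -0.01, with 41 of 79 below 0, and it was -0.17 with the share of alignments not unique as a covariate. In the fit without it, 4 members had an unadjusted p under 0.05, compared with 7.10% of all genes. These included Rpl4 (-0.21, SE 0.074, adjusted p = 0.64) and Rps3 (-0.22, SE 0.079, adjusted p = 0.64). Rpl4 had 213, 214, 278 and 225 CPM with Renilla shRNA, 188, 204 and 191 with sh10, and 204, 219 and 196 with sh20, so that the groups overlapped. Renilla replicate C, the library with the lowest total, had the highest value. Rpl3l had an unadjusted p of 0.022, on 0 to 15 raw counts.

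By hairpin, edgeR and DESeq2 called none of the 79 members with sh10 in LSK cells, where 0.00664% of all genes were called by edgeR, and 4 had an unadjusted p under 0.05, compared with 4.96% of all genes. The median with sh10 was -0.19 with the share of alignments not unique as a covariate. Both tools called none with sh20, where 0.0796% of all genes were called, and 7 had an unadjusted p under 0.05, compared with 10.4% of all genes. The members with the lowest p-values for sh20 were Rpl22 (-0.34, SE 0.13, adjusted p = 0.38), Rpl6 (0.44, SE 0.18, adjusted p = 0.40) and Rps10 (0.79, SE 0.33, adjusted p = 0.40). The share of gene counts on the family was 0.208% to 0.262% with Renilla shRNA, 0.220%, 0.279% and 0.199% with sh10 replicates A, B and C, and 0.218% to 0.228% with sh20. In sh10 replicate B, the library with the highest share, 50.9% of alignments were not unique, compared with 39.6% to 45.1% in the other LSK libraries. The chi-square per degree of freedom of replicate B against sh10 replicates A and C was 37.8 and 45.2, compared with 5.12 between A and C. Such spread can hide changes in the sh10 group. No member was called with sh10 in LSK cells when any 1 library was left out.

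Rpl22, an RNA-binding large subunit protein needed for T cell development, was the member with the lowest p-value between hairpins in LSK cells. It had 88.3, 111 and 82.6 CPM with sh10, 55.8, 70.5 and 61.9 CPM with sh20, and 69.1, 73.3, 82.4 and 93.9 CPM with Renilla shRNA. The sh20 libraries lay below all sh10 libraries, and the log2 difference of -0.58 (SE 0.14) had an unadjusted p of 7.7e-04 and an adjusted p of 0.12 in edgeR, which called none of the 79 and 0.186% of all genes. An unadjusted p under 0.05 was found for 5 of the 79, compared with 11.0% of all genes. DESeq2 called 1 member, which was Rpl22. The mature neutrophil genes also stood apart between these hairpin groups, at 64.7 to 275 CPM with sh10 and 3.12 to 6.90 CPM with sh20, and their part was not tested. Its paralogue Rpl22l1, outside the naming rule, changed by -0.03 with *Spehd* shRNAs in LSK cells (SE 0.19) and by -0.10 in CMPs (SE 0.20), neither called.

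The difference between the knockdown effects in CMPs and LSK cells was then tested. Its median over the 79 members was -0.26, compared with -0.04 over all genes, and 69 of 79 were below 0. No single member passed in edgeR or in DESeq2, where 0.0531% of all genes did in edgeR, and 4 had an unadjusted p under 0.05, compared with 10.1% of all genes. The lowest p-values were those of Rpl10 (0.83, SE 0.34, adjusted p = 0.44), Rpl34 (-0.53, SE 0.23, adjusted p = 0.46) and Rpl6 (-0.48, SE 0.22, adjusted p = 0.49).

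Of the 21 members linked to Diamond-Blackfan anaemia, all were tested. In CMPs with *Spehd* shRNAs 1 of 21 fell, Rpl8, where 2.14% of all genes fell, and the median was -0.24. Rps19, the gene most often mutated in that disease, had 47.5 ± 5.86 CPM with Renilla shRNA (SD, n = 4) and 38.8 ± 5.93 with *Spehd* shRNAs (SD, n = 5), a change of -0.30 (SE 0.17, adjusted p = 0.40). Rps24 had -0.39 (SE 0.15), Rps27 -0.52 (SE 0.40), Rpl35 -0.33 (SE 0.22), Rps26 -0.31 (SE 0.18), Rpl26 -0.31 (SE 0.17) and Rps10 -0.28 (SE 0.29). Rpl31, Rps15a, Rpl18, Rps20, Rps7 and Rpl27 lay between -0.27 and -0.14, and Rpl35a, Rpl15 and Rpl5 between -0.05 and 0.07. Rpl11, which with Rpl5 binds MDM2, had 0.31 (SE 0.26), Rps28 0.36 (SE 0.33) and Rps29 0.55 (SE 0.62). Only Rpl8 among these passed the test. Between CMPs and LSK cells with Renilla shRNA 4 of the 21 rose, where 11.0% of all genes did: Rpl31 by 0.76, Rps7 by 0.73, Rpl27 by 0.60 and Rpl8 by 0.26. With *Spehd* shRNAs in LSK cells none of the 21 was called, and the median was 0.02.

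Some paralogues had few or uneven counts, unlike Rps27l with 192 to 293 counts. Rpl10l, the testis form of Rpl10, had 1 count in 1 library and 0 in the other 18, and Rpl39l had at most 15 counts. Rps4l had 9 to 222 counts, and within CMP sh10 replicates A, B and C it had 23, 9 and 130. The 298 genes named as pseudogenes of the family summed to 17.5 to 47.3 CPM per library, compared with 1999 to 3065 CPM for the 83 members. Over the 19 libraries, the members whose log2 CPM was most like the median member were Rps21 (Pearson r = 0.94), Rpl26 (0.93) and Rpl41 (0.90), which share library depth and groups.

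Genes that work with the ribosome were examined by lists chosen with earlier results known, and in CMPs with *Spehd* shRNAs 2.14% of all genes fell. The 6 further ribosomal protein genes outside the naming rule had none called in CMPs with *Spehd* shRNAs, from Rps3a1 at -0.44 to Fau at -0.04 and Rpl36al at 0.09. Of 39 translation factors, 5 fell and none rose there, with a median of -0.17: Eif5a, Rack1, Eef2, Eif4h and Eif3b. Eef1a1, the elongation factor that delivers transfer RNA, had -0.35 (SE 0.10, adjusted p = 0.083), and the other extremes were Eif5a at -0.33, Eif3a at 0.20 and Eif4g1 at 0.31. Of 43 subunit assembly factors none was called, and the median was -0.01, from Ebna1bp2 at -0.27 and Aamp at -0.24 to Heatr3 at 0.39 and Efl1 at 0.55. Of 18 genes that act on TOP messages or their transcription, 1 fell, Myc, by 0.30 on the log2 scale (SE 0.073, adjusted p = 0.043), and Eif4ebp1 had -0.34, Max 0.51 and Mtor 0.64, none of these called. Of 77 tested mitochondrial ribosomal protein genes, 1 fell, Mrpl18, named after its value was seen, and the median was -0.13.

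Between CMPs and LSK cells with Renilla shRNA the same lists were compared. There 17 of 39 translation factors, 22 of 43 assembly factors, 50 of 77 mitochondrial ribosomal protein genes and 3 of 18 regulators rose, and none of any list fell, where 11.0% of all genes rose. Medians were 0.26, 0.36, 0.48 and 0.07, beside 0.43 for the cytosolic ribosomal proteins. Bysl, which matures the small subunit, rose by 0.85 (SE 0.10, adjusted p = 3.6e-05).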

How the data were processed

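RNA from 19 sorted libraries was sequenced after SMART-Seq v4 low-input cDNA synthesis. The authors mapped them with STAR to the mm10 build, discarded duplicates with Picard, and deposited raw counts per gene from HTSeq on a GENCODE annotation. No strand setting was named for counting. The study states default parameters unless specified, and HTSeq by default counts reads by strand. Only uniquely aligned reads were counted, and removing duplicates keeps at most 1 alignment per position, so counts of short, abundant or multi-copy genes need not scale with their RNA. Rows that name no gene, 72.0% to 77.7% of alignments in a library, were left out.

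Counts were fitted with edgeR 4.0.16 in R 4.3.3: TMM scaling, filterByExpr, 1 quasi-likelihood fit of 6 groups, and Benjamini-Hochberg adjustment over 15066 genes with a threshold of 0.05. The standard error is the absolute log2 fold change divided by the square root of F. CPM used TMM library sizes. DESeq2 1.42.0, other scalings and filters, covariates and left-out libraries were alternatives. The fit was checked on simulated data. Single values were compared by exact permutation tests with scipy 1.17.1, and figures were drawn with matplotlib 3.10.9.

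Members averaging at least 50 counts were named where they were called (the 3 largest rises and falls per comparison, or the 3 lowest p-values where none passed), and always for the stalk proteins, Rpsa, the anaemia list, paralogues, the extremes of level per length, calls against the majority and the 3 most like the median member. Other members named were chosen after their values were seen. The members and lists were chosen with earlier results of these data known. Sequences came from RefSeq. Some named items are not reported here, although counts and medians over all members hold them.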

Additional observations from a re-analysis of the deposited data

Results flagged for a closer look

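Groups of 4 libraries were screened for 1 library that stands apart from the rest of its group. Chance alone gives about 1 such library in 20 groups, and 78 groups were screened. Rps19 stood at 56.2 CPM in CMP Renilla replicate D, above the 43.71 to 45.81 CPM of the others. In LSK Renilla replicate A, Rps7 stood at 9.72 CPM, below 13.06 to 13.64, and Rps26 at 14.37 CPM, below 20.3 to 21.29. Rpl3l had 0.7363 CPM in CMP Renilla replicate D and 0.2009 CPM in LSK Renilla replicate B, and 0 counts in the other Renilla libraries, which are values of 3 counts and 1 count.

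Rpl10 differed between the hairpins in CMPs, with a log2 fold change of 1.152 for sh20 against sh10 in edgeR's quasi-likelihood test, resting on CMP sh20 replicate B.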

How the results depend on the processing

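For *Spehd* against Renilla shRNA in CMPs, 3 members were called, and the count was 0 with TMM factors set without the members, no filter, a filter of at least 10 counts in every library, both *Spehd* shRNAs as 1 group, the replicate block, log2 total as a covariate, or an offset for counts per exonic base. It was 5 with only the libraries compared, 10 in DESeq2 and 5 with the share of alignments not unique as a covariate. Leaving out 1 library gave 0 to 4. For sh20 in CMPs, 5 were called, and the count was 3 with DESeq2 size factors, with TMM without the members or with the 10-count filter, 2 with upper quartile scaling, 10 in DESeq2 or with the share not unique, and 0 with no filter, the replicate block, log2 total or the offset. Leaving out 1 library gave 0 to 6.

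For CMP against LSK with Renilla shRNA, 17 were called, and the count was 8 with upper quartile scaling or only members under 50% shared words, 2 with no filter, 9 with log2 total, 0 with the share not unique, and 5 to 28 without 1 library. With sh10, 2 were called, and the count was 0 with upper quartile scaling, no filter, only the libraries compared or members under 50% shared words, 1 with either replicate block or the offset, and 0 to 2 without 1 library. With sh20, 2 were called, and the count was 1 with upper quartile scaling, no filter or the block of shRNA and letter, 0 with only the libraries compared or members under 50% shared words, 6 in DESeq2, and 1 to 5 without 1 library. For sh20 against sh10 in CMPs, 1 was called, and the count was 0 with no filter, only the libraries compared, the replicate block, log2 total, the share not unique or members under 50% shared words, and 0 to 1 without 1 library. In LSK cells DESeq2 called 1.

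With log2 total, medians were -0.0498 for *Spehd*, -0.0746 for sh10 and -0.0258 for sh20 shRNAs in CMPs, and 0.2827 for CMP against LSK with sh20. With the share not unique they were -0.171 for *Spehd* and -0.1906 for sh10 in LSK cells, 0.2194 and 0.0005 for CMP against LSK with Renilla and sh20, and -0.2295 for sh20 against sh10 in CMPs. The median for sh20 against sh10 in LSK cells ran from -0.1229 to 0.0968 without 1 library. The causes were not tested.

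Among the results and alternatives run, sign changed only in 5 medians near 0, those of the 3 comparisons with Renilla shRNA in LSK cells and of sh20 against sh10 in either cell type: without 1 library they ran from -0.092 to 0.0427 for *Spehd* and from -0.1343 to 0.1262 for sh10 in LSK cells, and from -0.1279 to 0.0351 for sh20 against sh10 in CMPs. The sign of the sh20 median in LSK cells changed with log2 total alone. No source says that the letters pair libraries, so the replicate block was an alternative only, and its count for CMP against LSK with Renilla shRNA was 12. Deviations from group means correlated between -0.0007 and 0.21 (median 0.052) in CMP and LSK libraries of the same shRNA and letter. For the same shRNA and different letters they correlated between -0.17 and 0.090 (median -0.027). The main tests did not pair libraries. The covariate for the share not unique and the restriction to members under 50% shared words were chosen after seeing the data. Counts of 9548 to 14016 per library over 83 genes limit the precision of the less counted members.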
